A study of Mus musculus with 17 samples.

Results

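The paired isoform genes of the vacuolar H+-ATPase (V-ATPase) were followed through kidneys that express the PRCC-TFE3 fusion. The V-ATPase is a rotary proton pump with a cytosolic V1 sector, which hydrolyses ATP, and a membrane V0 sector, which carries protons. Most cells use it to acidify lysosomes and endosomes, and the intercalated cells of the collecting duct also place it in the plasma membrane, where it moves acid into the urine or into the blood. For several subunits the genome holds a ubiquitous gene and a partner that is enriched in intercalated cells. The genes described here are the 5 such pairs for the subunits B, a, d, G and C, taken by name with their transcripts summed, and all 10, of 35971 in the files, passed the filter on low counts that kept 17011 genes. The intercalated-cell forms are Atp6v1b1, Atp6v0a4, Atp6v0d2, Atp6v1g3 and Atp6v1c2, and the ubiquitous forms are Atp6v1b2, Atp6v0a1, Atp6v0d1, Atp6v1g1 and Atp6v1c1.

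RNA of 17 mouse kidneys was sequenced, and every mouse carried the lsl-PRCC-TFE3 KI allele, in which a stop cassette keeps the fusion silent until Cre removes it. The 4 Cre(−) mice had no KSP-Cre, and of these replicates 1 and 2 also carried HIF1a f/f whereas replicates 3 and 4 carried no floxed HIF allele. KSP-Cre(+) was present in 3 PRCC-TFE3 KI mice, in 4 mice with HIF1a f/f (Hif1α KO), in 3 mice with HIF2a f/f (Hif2α KO) and in 3 mice with both floxed alleles (DKO). The KSP (Cadherin 16) promoter drives Cre in the tubular epithelium, so that other cells of the kidney keep the silent allele and intact HIF genes. The labels give no age, sex or batch, each library is taken as a separate mouse from its title, and the numbering of the libraries mostly runs group by group, so that an effect of library order and one of genotype cannot be told apart.

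Library totals ranged from 16504419 to 24668827 counts, and a floor of 3 counts corresponded to 0.117 to 0.206 CPM, which covers counting error only. CPM are counts scaled to library sizes corrected by the TMM method. Gpnmb, a known target of TFE3, was at 0.993 to 2.14 CPM in the Cre(−) kidneys and at 13008.5 to 15629 CPM in KI kidneys. It was at 3269 to 7452 CPM in Hif1α KO, 4953 to 11387 CPM in Hif2α KO and 2806 to 6415 CPM in DKO kidneys. Every knockout library thus lay below every KI library. Hif1a had 163 to 198 CPM in Hif1α KO and 184 to 232 CPM in KI kidneys, and Epas1 had 136 to 149 CPM in Hif2α KO and 173 to 192 CPM in KI kidneys. On the log2 scale the difference of Hif1a from KI was -0.21 ± 0.13 (standard error) in Hif1α KO kidneys and that of Epas1, the gene of HIF2α, was -0.33 ± 0.093 in Hif2α KO kidneys, neither past the threshold (edgeR adjusted p = 0.372 and 0.0788). A sum over whole genes in whole kidneys does not check the removal of floxed exons, so that the knockout groups are called by their labels. KI replicate 2 stood apart in adipocyte transcripts, with 421 summed CPM of 4 markers against 2.84 to 62.2 in the other 16 libraries. Without it, the count of members called below against Cre(−) stayed at 4 higher and 4 lower in KI kidneys, and that against KI was 2 in Hif1α KO, 0 in Hif2α KO and 5 in DKO kidneys. The share of all genes called was not computed without this library, and the shares given below are those of all 17 libraries. In bulk RNA, fewer cells of a type and less RNA per cell cannot be told apart.

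The B subunit forms the catalytic ring of V1 together with subunit A, and inherited loss of its B1 form causes renal tubular acidosis with hearing loss. The a subunit is the large membrane subunit of V0 that guides protons and directs the pump to its membrane, and loss of a4 also causes tubular acidosis. Subunit d couples V0 to the rotor, G is part of the stalks that hold V1 in place, and C clamps V1 to V0 when the pump assembles. TFE3 belongs to the MiT/TFE family, which switches on lysosomal genes, V-ATPase subunits among them, through E-boxes with the letters TCACGTGA. FOXI1, a forkhead factor, is required for intercalated cells and for their pump genes, and forkhead factors bind the letters GTAAACA.

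Promoter windows of 300 bases, from 250 bases before to 50 after the RefSeq start on GRCm38.p6, were at hand for 6 of the 10 members, namely Atp6v1g3, Atp6v0a4, Atp6v1b1, Atp6v0d1, Atp6v0a1 and Atp6v1c2. Atp6v1b2, Atp6v0d2, Atp6v1g1 and Atp6v1c1 had none. TCACGTGA, which reads the same on both strands, occurred in 1 of the 6 windows, that of Atp6v0d1, against 0.97% of all 32851 windows. TCATGTGA, a variant bound by the same family, occurred on either strand in 0 of the 6 windows and in 0.99% of all. CACGTG, the core contained in TCACGTGA, was again found in the Atp6v0d1 window alone among the 6, and in 7.15% of all. GTAAACA on either strand occurred in 1 of the 6, that of Atp6v1b1, and in 3.65% of all. The window of Atp6v0a1 starts its count 1423 bases upstream of the start of Atp6v0a1-202, the gene's most abundant transcript. It was counted among the 6 and was not read further. Among the other pump genes below, 19 of 24 had a window and 3, Atp6v1a, Atp6v0e and Vma21, held TCACGTGA, while a window of Atp6v0c held TCATGTGA. A match is a run of letters and not a measured binding site, and the absence of one refers to the window alone.

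The windows of 3 genes that the results turn on are printed, up to the annotated start or the end of the match there. The first is Atp6v0d1, a ubiquitous isoform that rose, on the minus strand at chr8:105566061-105566314, with TCACGTGA in capitals from position -4 to 4 around the RefSeq start. The next is Atp6v1b1, the intercalated-cell B subunit, on the plus strand at chr6:83742767-83742989, with TGTTTAC, the reverse complement of GTAAACA, in capitals from position -98 to -92 relative to the RefSeq start. The print ends before the annotated start of Atp6v1b1-201, which stands at -27 from the RefSeq start. The last is Atp6v0a4, the intercalated-cell a subunit, on the minus strand at chr6:38124587-38124836, in which none of the motifs was found and nothing is in capitals.
Atp6v0d1: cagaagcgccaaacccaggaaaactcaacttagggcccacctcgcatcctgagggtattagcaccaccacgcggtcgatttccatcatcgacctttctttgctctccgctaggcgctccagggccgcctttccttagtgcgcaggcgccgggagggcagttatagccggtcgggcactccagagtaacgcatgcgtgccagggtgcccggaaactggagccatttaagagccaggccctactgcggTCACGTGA
Atp6v1b1: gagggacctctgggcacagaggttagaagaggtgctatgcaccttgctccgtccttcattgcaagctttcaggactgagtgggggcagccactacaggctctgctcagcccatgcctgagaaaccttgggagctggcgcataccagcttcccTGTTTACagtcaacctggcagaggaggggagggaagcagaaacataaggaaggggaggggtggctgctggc
Atp6v0a4: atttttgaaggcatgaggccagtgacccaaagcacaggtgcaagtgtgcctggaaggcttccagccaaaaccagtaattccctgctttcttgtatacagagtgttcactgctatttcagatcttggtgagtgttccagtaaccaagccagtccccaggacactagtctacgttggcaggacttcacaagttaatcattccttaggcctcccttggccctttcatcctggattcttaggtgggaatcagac

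The intercalated-cell isoform made up 16.2% to 83.8% of its pair in Cre(−) kidneys and 2.81% to 24.5% in KI kidneys, as group means. Against Cre(−), 4 of 5 intercalated-cell isoforms were lower in KI kidneys and 4 of 5 ubiquitous isoforms were higher, tested by the quasi-likelihood method of edgeR at an adjusted p of 0.05 over all genes tested. The background was large in this comparison, with 31.6% of the 17011 genes higher and 29.3% lower. The other two, Atp6v0d2 and Atp6v1b2, did not pass. The same 8 members had KI and Cre(−) values that did not overlap, as did 28.9% of all genes on the higher side and 27.7% on the lower side. The median log2 fold change was -1.75 over the 5 intercalated-cell isoforms and 0.97 over the 5 ubiquitous isoforms, beside 0.030 over all genes tested. Those values rest on TMM scaling. In TPM, which counts each gene per length as a share of the whole library, the median gene stood 0.48 higher in KI than in Cre(−) on the log2 scale, and 0.45, 0.53 and 0.56 higher in Hif1α KO, Hif2α KO and DKO kidneys.

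**Figure D1:**
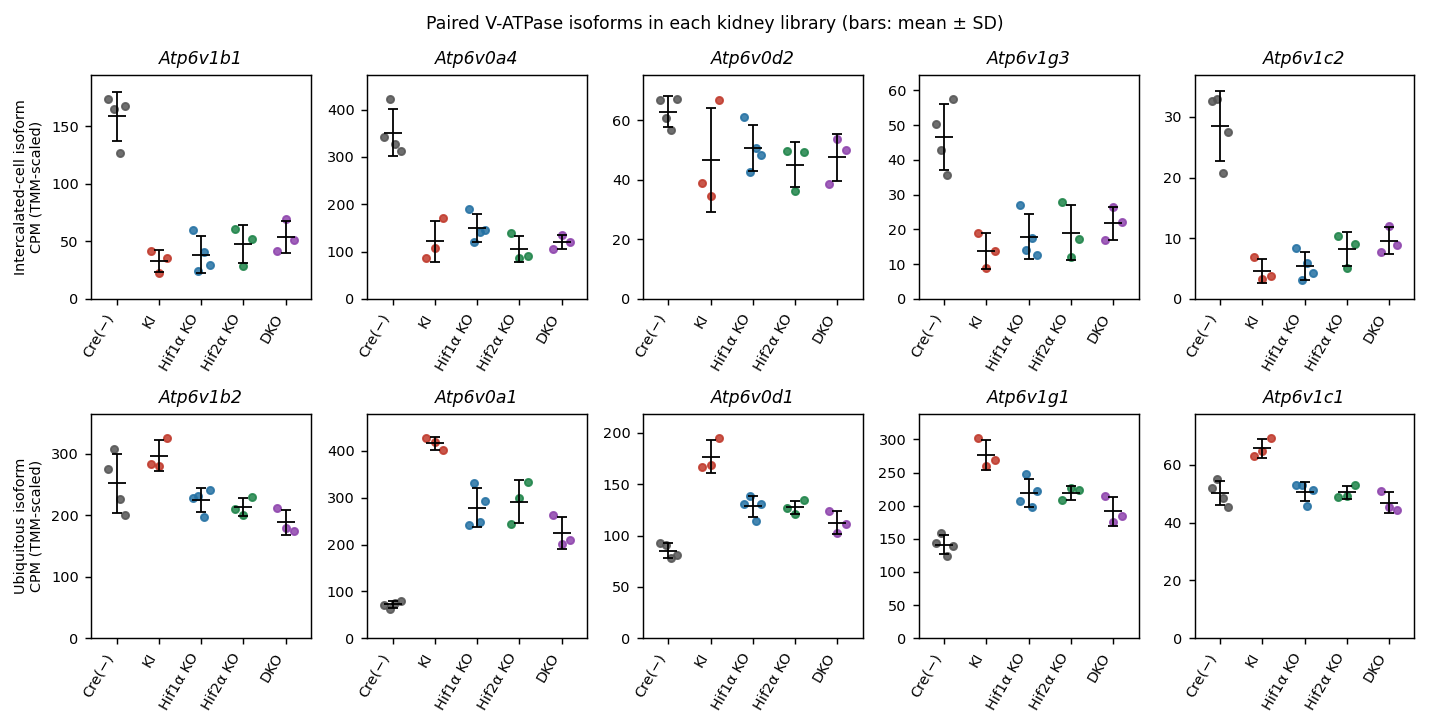
CPM of each paired isoform (vertical axis, linear, from 0) in the 5 genotype groups (horizontal axis), intercalated-cell forms above and their ubiquitous partners below. Each point is 1 kidney library and the bars give mean ± SD. Atp6v1b1, Atp6v0a4, Atp6v1g3 and Atp6v1c2 lie lower in every Cre(+) library than in any Cre(−) library, and Atp6v0a1 rises from at most 80.2 to at least 201 CPM.

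Atp6v1b1 (ENSMUSG00000006269.7), on chromosome 6 from 83742990 to 83758855, had 174, 165, 127 and 168 CPM in the 4 Cre(−) kidneys. In the 3 KI kidneys it had 41.3, 22.3 and 35.2 CPM, each far below each Cre(−) value. The log2 fold change was -2.27 ± 0.33 (edgeR adjusted p = 2.37e-05), or 0.208 times the Cre(−) level. Its partner Atp6v1b2 (ENSMUSG00000006273.14), on chromosome 8 from 69088646 to 69113711, had 275, 308, 227 and 199.9 CPM in Cre(−) and 284, 281 and 326 CPM in KI kidneys, and these ranges overlapped. Its log2 fold change of 0.23 ± 0.13 did not pass (edgeR adjusted p = 0.129). Without Cre(−) replicate 2, which had the highest of the Cre(−) values, it was 0.35 (edgeR adjusted p = 0.0232), and on the TPM scale it was 0.72 (limma adjusted p = 0.000378). The median gene stood 0.48 higher in KI on the TPM scale.

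Atp6v0a4 (ENSMUSG00000038600.12), on chromosome 6 from 38048483 to 38124586, had 343, 423, 327 and 312 CPM in Cre(−) kidneys. It is known from the proximal tubule as well as from intercalated cells, and the 7 proximal tubule markers, summed, had 9721 to 11490.0 CPM in Cre(−) and 676 to 781 CPM in KI kidneys, all 7 lower, beside 29.3% of all genes. Their part in the Atp6v0a4 values was not tested. KI kidneys had 86.4, 108 and 170.3 CPM, of which replicate 3 was the highest and was still well below Cre(−). The log2 fold change was -1.53 ± 0.23 (edgeR adjusted p = 3.04e-05). Atp6v0a1 (ENSMUSG00000019302.16), the lysosomal and synaptic form on chromosome 11 from 101009452 to 101063719, had 71.5, 62.9, 75.2 and 80.2 CPM in Cre(−) and 428, 418 and 402 CPM in KI kidneys. This was the largest change among the ubiquitous forms, 2.52 ± 0.14 on the log2 scale (edgeR adjusted p = 1.43e-09), or 5.74-fold. The 3 KI values lay close together and far above Cre(−).

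Atp6v0d2 (ENSMUSG00000028238.6), on chromosome 4 from 19876841 to 19922605, is also known from macrophages and osteoclasts. Its Cre(−) values were 66.9, 60.8, 56.6 and 67.3 CPM and its KI values 39.0, 34.5 and 66.8 CPM, so that KI replicate 3 lay among the Cre(−) values and the others below them. The log2 fold change of -0.43 ± 0.20 did not pass (edgeR adjusted p = 0.0741), and without KI replicate 3 it was -0.77 (edgeR adjusted p = 0.00107). In TPM its values were 28.5, 29.0, 25.5 and 28.7 in Cre(−) and 24.8, 21.9 and 38.5 in KI kidneys, a log2 difference of -0.017 (limma adjusted p = 0.937). Atp6v0d1 (ENSMUSG00000013160.7), on chromosome 8 from 105524465 to 105566047, rose from 92.5, 90.4, 77.6 and 80.9 CPM to 167, 169 and 195 CPM. Its log2 fold change was 1.05 ± 0.092 (edgeR adjusted p = 1.32e-07). Its promoter window holds TCACGTGA. Of the other pump genes with these letters, Atp6v1a (-0.66) and Vma21 (-0.55) were lower in KI kidneys and Atp6v0e (-0.25) did not pass. On the TPM scale, where the median gene stood 0.48 higher in KI, Atp6v1a was at -0.21, Vma21 at -0.069 and Atp6v0e at 0.24. Whether these letters bear on the values was not tested. Of 7 macrophage markers, 6 were higher in KI kidneys, beside 31.6% of all genes. The other, Csf1r, was at -0.21 ± 0.092 and did not pass (edgeR adjusted p = 0.0603). The summed level of the 7 went from 206 to 267 CPM in Cre(−) to 645 to 874 CPM in KI. Of 4 osteoclast markers Dcstamp and Ocstamp stayed at or below 0.974 CPM in every library. Ctsk was higher in KI (2.84-fold, edgeR adjusted p = 1.16e-06) and Acp5 lower (0.572-fold, edgeR adjusted p = 0.0128). The part of these cells in the Atp6v0d2 values was not tested.

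Atp6v1g3 (ENSMUSG00000026394.5), on chromosome 1 from 138273738 to 138289462, had 50.5, 42.9, 35.7 and 57.6 CPM in Cre(−) kidneys. KI kidneys had 19.1, 8.78 and 13.8 CPM, a difference of -1.75 ± 0.33 on the log2 scale (edgeR adjusted p = 0.000270), and the groups were well apart. Atp6v1g1 (ENSMUSG00000039105.6), on chromosome 4 from 63544772 to 63550750, moved the other way, from 143, 159, 124 and 139 CPM to 302, 259.5 and 269 CPM. This is a log2 fold change of 0.97 ± 0.10 (edgeR adjusted p = 7.82e-07).

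Atp6v1c2 (ENSMUSG00000020566.19), on chromosome 12 from 17284721 to 17329359, had the largest fall of the members, with 32.7, 33.0, 20.8 and 27.6 CPM in Cre(−) kidneys and 6.84, 3.23 and 3.77 CPM in KI kidneys, which is -2.63 ± 0.36 on the log2 scale (edgeR adjusted p = 1.22e-05). Its RNA was also divided among 9 transcripts, of which Atp6v1c2-208 held 54.6% in Cre(−) and from 21.4% to 74.8% in KI kidneys, whereas the most abundant transcript held 62.2% or more of each other member in every group mean. Atp6v1c1 (ENSMUSG00000022295.8), on chromosome 15 from 38661933 to 38692446, had 51.9, 55.3, 48.6 and 45.6 CPM in Cre(−) and 63.1, 64.7 and 69.4 CPM in KI kidneys. All KI values were higher, but the change was small, 0.38 ± 0.077 on the log2 scale (edgeR adjusted p = 0.000467).

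The levels of different genes were set against each other in TPM, the unit per length. In Cre(−) kidneys Atp6v1g1 (146 ± 20.6 TPM, SD, n = 4) and Atp6v0a4 (131 ± 24.9 TPM) came highest, followed by Atp6v1b2 (104 ± 23.8 TPM) and Atp6v1b1 (103 ± 13.01 TPM), and neighbours in this order did not differ beyond their spread. Atp6v0d1 stood at 61.4 ± 7.18 TPM. The other 5 members lay together between 23.5 ± 5.41 TPM for Atp6v1c2 and 28.1 ± 4.78 TPM for Atp6v1g3. In KI kidneys the order changed. Atp6v1g1 was alone at the top with 396 ± 44.5 TPM (SD, n = 3), followed by Atp6v0a1 (185 ± 16.3 TPM), Atp6v0d1 (176 ± 7.34 TPM) and Atp6v1b2 (169 ± 4.55 TPM), which were within their spread of each other. Atp6v0a4 (60.3 ± 18.1 TPM) and Atp6v1c1 (52.1 ± 2.32 TPM) came next, then Atp6v1b1 (28.5 ± 7.91 TPM) and Atp6v0d2 (28.4 ± 8.87 TPM). Atp6v1g3 (11.6 ± 4.50 TPM) and Atp6v1c2 (5.17 ± 2.27 TPM) were last.

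The ratio of the isoforms of a pair is taken within a library and does not depend on how libraries are scaled to each other. It was computed as log2 of intercalated-cell over ubiquitous TPM, with 0.1 added to each, and tested by exact permutation of the libraries. In the 13 Cre(+) kidneys every ratio of every pair lay below every Cre(−) ratio. The mean log2 ratio fell by 3.48 for a4/a1, by 2.31 for C2/C1, by 2.08 for G3/G1, by 1.88 for B1/B2 and by 1.08 for d2/d1. For each of the 5 pairs the exact permutation p was 0.000840, the smallest that 13 against 4 libraries can give, or 0.00336 after Benjamini-Hochberg adjustment over the 20 ratio tests made (two-sided). The Cre(+) libraries include the knockout groups.

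As shares of the TPM of the pair, Atp6v0a4 went from 83.8% ± 2.58 (SD, n = 4) in Cre(−) to 24.5% ± 7.17 (SD, n = 3) in KI kidneys, and so from the major to the minor a isoform. Atp6v1b1 and Atp6v1b2 were nearly equal in Cre(−) kidneys, where Atp6v1b1 made up 50.1, 45.8, 46.3 and 58.3% of the pair, and Atp6v1b1 made up 17.8, 10.9 and 14.4% in KI kidneys. The share of Atp6v1c2 went from 45.2% ± 4.68 to 9.00% ± 3.81. Atp6v0d2 went from 31.3% ± 2.03 to 13.7% ± 3.14, and Atp6v1g3, the minor G form of the pair throughout, from 16.2% ± 2.68 to 2.81% ± 0.817. In the d pair Atp6v0d1 was the gene that passed the test, and Atp6v0d2 did not. The summed TPM of the B pair was 207 ± 30.9 in Cre(−) and 197 ± 9.97 in KI kidneys, while that of the G pair was 174 ± 21.9 and 408 ± 48.2. Unlike the shares, these sums depend on the scaling, and in TPM the median gene stood 0.48 higher in KI on the log2 scale. By TMM-scaled counts Atp6v1b1 changed by -2.27 and Atp6v1b2 by 0.23, and Atp6v1g3 by -1.75 and Atp6v1g1 by 0.97.

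**Figure D2:**
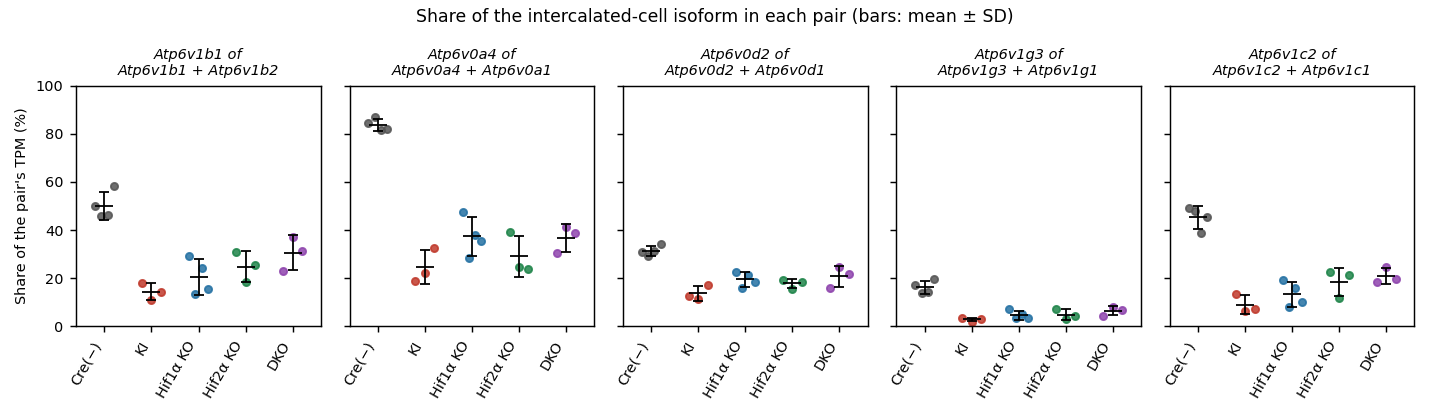
Share of the intercalated-cell isoform in the summed TPM of its pair (vertical axis, percent, 0 to 100) in each genotype group (horizontal axis). Points are kidney libraries and bars are mean ± SD. In all 5 pairs every Cre(+) point lies below every Cre(−) point. The mean shares in each knockout group lie above those in KI kidneys, with overlapping points in most of these comparisons.

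The same isoforms were compared with Cre(−) in the knockout groups, which share the Cre(−) libraries. In Hif1α KO kidneys 4 intercalated-cell isoforms were lower and 3 ubiquitous isoforms, Atp6v0a1, Atp6v0d1 and Atp6v1g1, were higher (background 31.9% higher and 30.1% lower). In Hif2α KO kidneys all 5 intercalated-cell isoforms were lower and the same 3 ubiquitous isoforms were higher (background 32% higher and 29.9% lower). There Atp6v0d2 had a log2 fold change of -0.48 ± 0.20 (edgeR adjusted p = 0.0463) and no longer passed after 6 of the 7 Cre(−) and Hif2α KO libraries were left out singly, the exception being Cre(−) replicate 3, with adjusted p up to 0.198 without Hif2α KO replicate 2. On the TPM scale, where the median gene stood 0.53 higher in Hif2α KO, it was 0.030. In DKO kidneys the same 3 ubiquitous isoforms were higher, and 4 intercalated-cell isoforms and Atp6v1b2 were lower (background 30.4% higher and 27.9% lower). Atp6v1b2 stood at 212, 179 and 175 CPM in DKO kidneys, a log2 fold change of -0.42 ± 0.13 (edgeR adjusted p = 0.0122) that was -0.36 (edgeR adjusted p = 0.0567) without DKO replicate 3 and 0.18 on the TPM scale. The median gene stood 0.56 higher in DKO kidneys on the TPM scale. The change of Atp6v0a1 was 1.94 ± 0.13 in Hif1α KO, 2.01 ± 0.13 in Hif2α KO and 1.63 ± 0.13 in DKO kidneys, and that of Atp6v1c2 was -2.41 ± 0.31, -1.80 ± 0.34 and -1.58 ± 0.33 on the log2 scale.

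Loss of HIF was then compared with KI. All 5 ubiquitous isoforms had lower values in each knockout group, with no overlap with KI in any of the 15 comparisons, where 10.3% of all genes in Hif1α KO, 10.7% in Hif2α KO and 17.2% in DKO kidneys lay wholly below KI. By edgeR, 3 passed as lower in Hif1α KO kidneys (background 2.57% higher and 2.86% lower), 2 in Hif2α KO kidneys (background 0.741% higher and 0.647% lower) and 5 in DKO kidneys (background 6.53% higher and 6.19% lower). At an unadjusted p under 0.05 all 5 were lower in each group, where the background was 10.9% lower in Hif1α KO, 8.98% in Hif2α KO and 14.2% in DKO kidneys. These comparisons share the 3 KI libraries. Gpnmb also lay below every KI value in each knockout group, and whether these falls are linked was not tested.

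Atp6v0a1 was at 241, 330.3, 248 and 294 CPM in Hif1α KO kidneys, each below the lowest KI value of 402. The log2 fold change was -0.58 ± 0.13 (edgeR adjusted p = 0.0228). In Hif2α KO kidneys it had 243, 299 and 333 CPM, a log2 fold change of -0.51 ± 0.14 that did not pass (edgeR adjusted p = 0.0770). DKO kidneys had 264, 201 and 209 CPM and the largest of the 15 differences, -0.89 ± 0.14 (edgeR adjusted p = 0.00255), or 0.541 times KI. In all of these groups Atp6v0a1 remained far above Cre(−), whose highest value was 80.2 CPM.

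Atp6v0d1 passed the threshold in each knockout group. It had 131, 138, 114 and 131 CPM in Hif1α KO (-0.46 ± 0.091 on the log2 scale, edgeR adjusted p = 0.0134). It had 127, 121 and 134 CPM in Hif2α KO (-0.47 ± 0.10, edgeR adjusted p = 0.0312) and 124, 103 and 111 CPM in DKO kidneys (-0.65 ± 0.10, edgeR adjusted p = 0.00193). Its values in these kidneys were intermediate, above every Cre(−) kidney and below every KI kidney.

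Atp6v1c1 also passed in each, with log2 fold changes of -0.37 ± 0.077 in Hif1α KO, -0.38 ± 0.082 in Hif2α KO and -0.49 ± 0.083 in DKO kidneys (edgeR adjusted p = 0.0154, 0.0391 and 0.00328). Its values of 53.1, 52.9, 45.8 and 51.4 CPM in Hif1α KO and 49.1, 49.4 and 53.0 CPM in Hif2α KO kidneys lay among those of Cre(−). In TPM they were 35.3 to 41.7 and 41.0 to 45.9 against 26.4 to 31.7 in Cre(−). There limma called both higher (0.45 and 0.60 on the log2 scale, adjusted p = 6.68e-05 and 8.43e-06). The median gene itself stood 0.45 and 0.53 higher in TPM in these groups, so that much of these differences is shared by the typical gene. In DKO kidneys it had 51.0, 45.6 and 44.3 CPM, and on the TPM scale, where the DKO difference from KI was -0.24, it did not pass (limma adjusted p = 0.0775).

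Atp6v1g1 was at 207, 247, 198 and 222 CPM in Hif1α KO, 208, 227 and 223 CPM in Hif2α KO and 215, 175 and 184 CPM in DKO kidneys. The difference from KI passed in DKO kidneys (-0.53 ± 0.11 on the log2 scale, edgeR adjusted p = 0.00755) and not in Hif1α KO (-0.34 ± 0.10, edgeR adjusted p = 0.0615) or Hif2α KO kidneys (-0.34 ± 0.11, edgeR adjusted p = 0.116). Atp6v1b2 had 228, 232, 197 and 241 CPM in Hif1α KO and 211, 199.9 and 229 CPM in Hif2α KO kidneys, with differences from KI of -0.40 ± 0.13 and -0.48 ± 0.14 that did not pass (edgeR adjusted p = 0.0792 and 0.0868). In DKO kidneys its difference of -0.65 ± 0.14 passed (edgeR adjusted p = 0.00927). Whether the knockout groups differ from each other was not tested for these genes.

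Counts of calls in the single knockouts moved with the setting. In Hif2α KO kidneys Atp6v0d1 and Atp6v1c1 passed without KI replicate 1, and neither passed without any other single KI or Hif2α KO library, with adjusted p of edgeR up to 0.163 for Atp6v0d1 and 0.179 for Atp6v1c1, both without KI replicate 3. In Hif1α KO kidneys Atp6v0d1 passed in all 7 such fits. Atp6v0a1 did not pass without KI replicate 1 or 2 or Hif1α KO replicate 1 or 3, and Atp6v1c1 did not pass without KI replicate 3 or Hif1α KO replicate 3. DESeq2 called all 5 ubiquitous isoforms lower in each of the 3 knockout groups. The share of all genes that DESeq2 called was not computed, so this count has no background beside it.

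**Figure D3:**
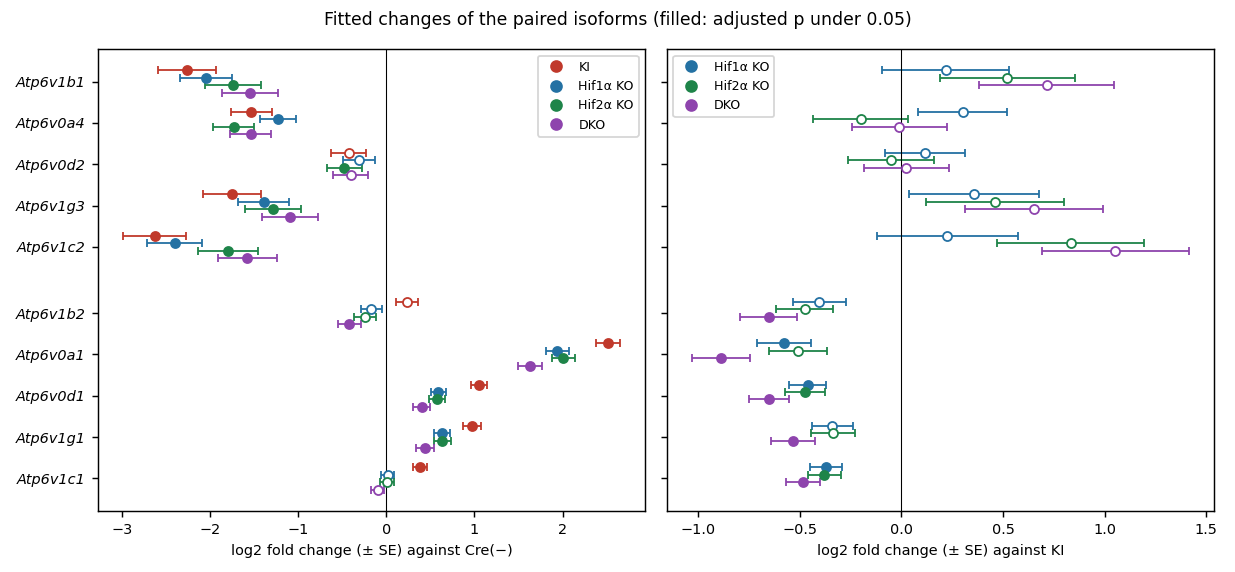
Fitted log2 fold change ± standard error (horizontal axes) of the 10 paired isoforms (vertical axis), against Cre(−) on the left and against KI on the right, coloured by genotype group. Filled points passed the adjusted p threshold of 0.05 in edgeR. On the right all 15 points of the ubiquitous isoforms lie below 0, whereas none of the intercalated-cell isoforms passed.

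None of the intercalated-cell isoforms passed against KI by edgeR in any knockout group. At an unadjusted p under 0.05 the count was 0 in Hif1α KO, 1 in Hif2α KO (Atp6v1c2, higher) and 2 in DKO kidneys (Atp6v1b1 and Atp6v1c2, both higher), beside 11.2%, 10.2% and 14.9% of all genes higher. DESeq2 called 0, 0 and 1 (Atp6v1c2), without a computed share of all genes. Atp6v1c2 had 7.75, 12.1 and 8.88 CPM in DKO kidneys, each above each of the 3 KI values, with a log2 fold change of 1.05 ± 0.36 (edgeR adjusted p = 0.0686), and 10.5, 5.12 and 9.06 CPM in Hif2α KO kidneys (0.83 ± 0.36, edgeR adjusted p = 0.228). Without KI replicate 1 the DKO difference was 1.45 and passed (edgeR adjusted p = 0.0275). Hif1α KO kidneys had 8.36, 3.12, 5.93 and 4.25 CPM.

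Atp6v1b1 stood at 60.2, 23.8, 40.4 and 29.1 CPM in Hif1α KO, 60.8, 28.9 and 52.1 CPM in Hif2α KO and 41.6, 69.2 and 51.5 CPM in DKO kidneys, the last all above KI by a narrow margin (0.72 ± 0.33 on the log2 scale, edgeR adjusted p = 0.167). Atp6v1g3 had 27.1, 14.1, 17.5 and 12.8 CPM, 27.8, 12.2 and 17.3 CPM and 16.9, 26.3 and 22.2 CPM in the same groups, which overlapped KI. Atp6v0a4 at 191, 121, 141 and 146 CPM, 138, 87.4 and 91.4 CPM and 106, 135 and 121 CPM stayed within or near the KI range. Atp6v0d2 at 61.0, 42.7, 50.6 and 48.4 CPM, 49.8, 36.3 and 49.2 CPM and 38.7, 53.8 and 50.03 CPM was likewise within it. In DKO kidneys 2 members lay wholly above KI, beside 16.5% of all genes.

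In ratios, each of the 15 differences between a knockout group and KI was positive, from 0.34 for a4/a1 in Hif2α KO to 1.46 for C2/C1 in DKO kidneys. None of these exact permutation tests could pass, since the smallest two-sided p is 0.0571 for 4 against 3 libraries and 0.1 for 3 against 3. The values did not overlap with KI for B1/B2 in Hif2α KO and DKO kidneys and for G3/G1 and C2/C1 in DKO kidneys, each with an exact permutation p of 0.1. The share of Atp6v1b1 in its pair was 29.4, 13.4, 24.2 and 15.4% in Hif1α KO, 30.8, 18.3 and 25.3% in Hif2α KO and 22.9, 37.3 and 31.4% in DKO kidneys. The share of Atp6v0a4 reached 37.3% ± 8.06 (SD, n = 4) in Hif1α KO and 36.7% ± 5.74 (SD, n = 3) in DKO kidneys, which overlapped KI.

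The rest of the pump was compared to place the pairs. The list of other pump genes holds 24 genes, of which 23 were tested, and in KI against Cre(−) 6 were higher, 9 lower and 8 neither, with a median log2 fold change of -0.059. Of all genes tested 31.6% were higher and 29.3% lower, which is also the background of the pump lists below. Among the 6 tested V1 subunits outside the 5 pairs 0 were higher, also at an unadjusted p under 0.05, and 3 lower. These were Atp6v1a (-0.66 ± 0.12), the catalytic subunit, and Atp6v1f (-0.51 ± 0.14) and Atp6v1h (-0.42 ± 0.11), parts of the rotor and of the regulatory clamp. On the TPM scale the differences of these 3 were -0.21, -0.016 and 0.12, so that the direction of Atp6v1h turned and the others shrank, and the V1 median turned from -0.34 to 0.17. The median of all genes tested stood 0.48 higher in KI on that scale, above each of these values.

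Among 6 V0 subunits 3 were higher and 2 lower. Atp6v0c, the proton-binding ring subunit, went from 350.0 ± 21.1 (SD, n = 4) to 622 ± 42.4 CPM (SD, n = 3), or 0.83 ± 0.089 on the log2 scale. Tcirg1, the a3 form known from osteoclasts and macrophage lysosomes, changed by 0.76 ± 0.12. Atp6v0e2, a tissue-restricted form of the small e subunit, had a change of -1.16 ± 0.13, with 40.3 ± 2.01 CPM in Cre(−) and 18.03 ± 3.65 CPM in KI kidneys. Against KI, Atp6v0c was lower in Hif1α KO (-0.42 ± 0.089, edgeR adjusted p = 0.0173) and in DKO kidneys (-0.65 ± 0.10, edgeR adjusted p = 0.00173) and did not pass in Hif2α KO kidneys (-0.35 ± 0.10, edgeR adjusted p = 0.0697). Of all 23 tested genes of these lists, edgeR called 0 higher and 1 lower in Hif1α KO, 0 in Hif2α KO (1 higher and 6 lower at an unadjusted p under 0.05) and 3 lower in DKO kidneys, the last being Atp6v0c, Atp6v0b (-0.36 ± 0.079) and Dmxl2 (-0.57 ± 0.16). The background was 2.57% higher and 2.86% lower in Hif1α KO, 0.741% and 0.647% in Hif2α KO and 6.53% and 6.19% in DKO kidneys. At the unadjusted threshold it was 10.2% higher and 8.98% lower in Hif2α KO kidneys.

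Of 5 accessory and assembly factors 1 was higher, Tmem199 (0.44 ± 0.10), and 1 lower, Vma21 (-0.55 ± 0.072), both of which act in assembly of V0 in the endoplasmic reticulum. Atp6ap1, an accessory subunit, had 0.14 ± 0.065 and did not pass (edgeR adjusted p = 0.0726). In the list of the RAVE complex and regulators, which promote or modulate the joining of V1 to V0, 2 of 6 were higher and 3 lower. Dmxl2 and Dmxl1, alternative large subunits of the mammalian RAVE complex, moved in opposite directions, with 1.71 ± 0.15 and -1.15 ± 0.15. Dmxl2 went from 88.8 ± 10.7 to 289.9 ± 33.9 CPM and Dmxl1 from 127 ± 19.5 to 57.0 ± 7.40 CPM. Ncoa7, which binds the pump and is known from intercalated cells, had -1.24 ± 0.12. The directions of Atp6v0c, Tcirg1, Atp6v0e2, Tmem199, Vma21, Dmxl2, Dmxl1 and Ncoa7 were the same on the TPM scale. That of Atp6v0a2, the other V0 gene called lower (-0.46 ± 0.085), turned to 0.044 there, and the median of the 23 genes turned from -0.059 to 0.24. Both lay below the 0.48 by which the median of all genes tested stood higher in KI in TPM.

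**Figure D4:**
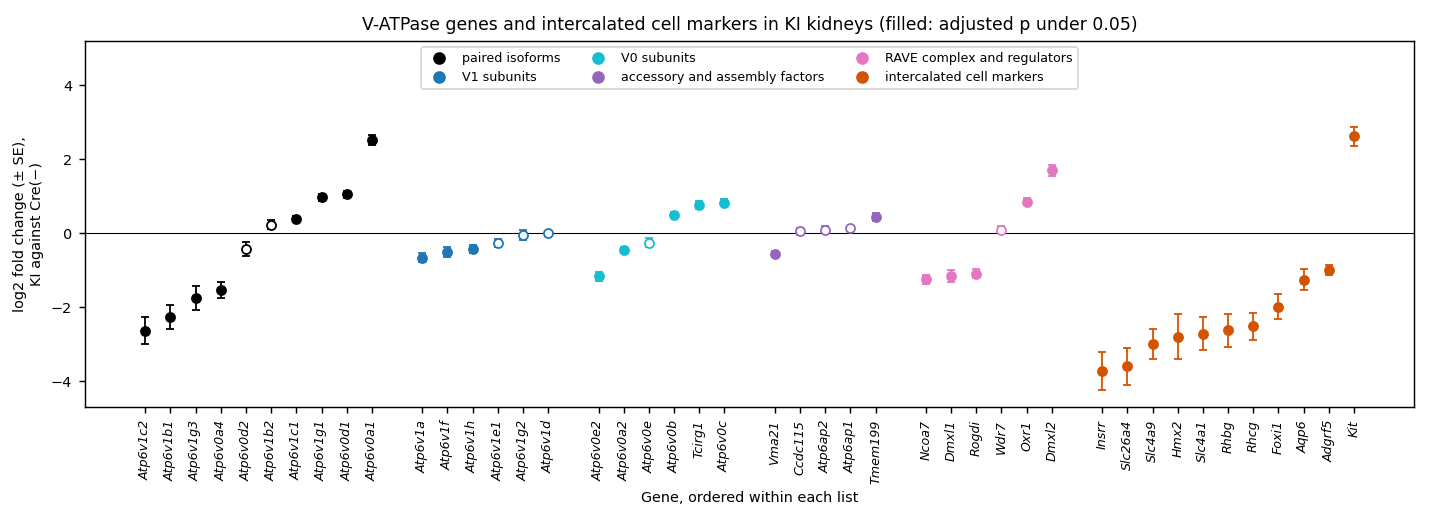
Log2 fold change ± standard error (vertical axis) in KI against Cre(−) kidneys of the tested genes (horizontal axis) of the paired isoforms, the other V-ATPase lists and the intercalated cell markers, ordered by value within each list. Filled points passed the adjusted p threshold of 0.05 in edgeR. The paired isoforms spread from -2.63 to 2.52, and 10 of 11 intercalated cell markers lie below 0, with Kit above.

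Markers of intercalated cells moved beside the intercalated-cell isoforms. Of 11 markers, 10 were lower and 1, Kit, was higher in KI than in Cre(−) kidneys, with a median log2 fold change of -2.61. All 11 were detected in every group. The summed level of all 11 was 746 to 896 CPM in Cre(−) and 341 to 452 CPM in KI kidneys. It was 362 to 487 in Hif1α KO, 307 to 472 in Hif2α KO and 365 to 462 CPM in DKO kidneys. Without Kit the sum was 717 to 855 CPM in Cre(−) and 162 to 235 CPM in KI kidneys. That sum was 210 to 411 in Hif1α KO, 194 to 360 in Hif2α KO and 257 to 402 CPM in DKO kidneys. Foxi1 itself had 41.3, 38.2, 38.0 and 48.6 CPM in Cre(−) and 15.8, 6.57 and 9.24 CPM in KI kidneys (-1.98 ± 0.33, edgeR adjusted p = 9.04e-05). Slc4a1, the anion exchanger of acid-secreting type A cells, changed by -2.71 ± 0.44, and Slc26a4, pendrin of base-secreting type B cells, by -3.60 ± 0.49. Kit rose from 26.5, 40.9, 28.7 and 30.2 CPM to 148, 179.7 and 255 CPM. The falls of Atp6v1b1 and Atp6v1c2 lay nearest to this median, and those of Atp6v1g3 and Atp6v0a4 were smaller. Most markers of other tubule segments were lower as well, namely all 7 of the proximal tubule with a median of -3.96 and 4 of 4 of the distal segments. Of 7 principal cell markers 6 were lower and 1, Aqp3, was higher (1.27 ± 0.17 on the log2 scale, edgeR adjusted p = 1.21e-05). Over all genes tested 29.3% were lower and 31.6% higher in KI than in Cre(−) kidneys. Against KI, 1 of the 11 intercalated cell markers was higher in Hif1α KO (3 at an unadjusted p under 0.05), 0 in Hif2α KO (2 at an unadjusted p under 0.05) and 1 in DKO kidneys (8 at an unadjusted p under 0.05), where Kit was lower. Of all genes 2.57%, 0.741% and 6.53% were higher in these groups. At the unadjusted threshold these shares were 11.2% in Hif1α KO, 10.2% in Hif2α KO and 14.9% in DKO kidneys. The part of these cells in the isoform values was not tested.

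Genes with the most similar profile were taken for each member by Pearson correlation of log2 CPM over 14712 genes with a mean TPM of at least 1, as a description. All 17 libraries share the contrast between Cre(−) and the fusion, so the 13 Cre(+) libraries are given beside them. Over 17 libraries Atp6v1b1 was most like Rhcg (0.99), Atp6v1c2 (0.99) and Rhbg (0.98), and over 13 Rhcg (0.97), Rhbg (0.96) and Atp6v1c2 (0.95). Rhcg and Rhbg are the ammonia transporters of intercalated cells. Atp6v1c2 was most like Atp6v1b1 (0.99), Rhbg (0.98) and Ipcef1 (0.98) over 17 libraries and Casr (0.97), Dlec1 (0.97) and Slc4a1 (0.96) over 13. For Atp6v1g3 these were Slc4a9 (0.97), Tmem52b (0.97) and Atp6v1b1 (0.97), and Slc4a9 (0.95), Pter (0.94) and Tmem52b (0.94). Slc4a9 is a bicarbonate transporter of type B cells.

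Atp6v0a4 had other neighbours than these. The nearest were Kcnj15 (0.99) and Aldh9a1 (0.99) over 17 libraries and Aldh9a1 (0.97), Zfp706 (0.96) and Apoa4 (0.95) over 13, among which Apoa4 is an apolipoprotein. Its correlation with Atp6v1b1 was 0.84 over 17 and 0.26 over 13 libraries. Atp6v0d2 had weaker neighbours, Slco2b1 (0.88), Tmem38a (0.87) and Fetub (0.87), and over 13 libraries Slc43a2 (0.89), Itm2b (0.88) and Smim5 (0.88). Within the 13 Cre(+) libraries Atp6v0d2 correlated with Atp6v0a4 at 0.80.

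Of the ubiquitous forms, Atp6v0d1 was most like Perp (0.97), Lamp1 (0.97) and Atp6v0c (0.97) over 17 libraries, of which Lamp1 is a major lysosomal membrane protein. Over 13 libraries its neighbours were Atp6v1c1 (0.98), Atp6v1b2 (0.98) and Ramp3 (0.97). Those of Atp6v1c1 were Rnf13 (0.93), Surf4 (0.92) and Tollip (0.92) and, over 13, Atp6v0d1 (0.98), Atp6v1b2 (0.98) and Osbpl1a (0.97). For Atp6v1b2 they were Mtmr11 (0.94), Osbpl1a (0.92) and Wsb2 (0.91), and over 13 libraries Atp6v0d1 (0.98), Atp6v1c1 (0.98) and Rnf13 (0.98), so that Atp6v1b2, Atp6v0d1 and Atp6v1c1 were each among the nearest genes of the other two within the Cre(+) kidneys. Atp6v0a1 was most like Man2b2 (0.996), Optn (0.995) and Plekhm2 (0.99) over 17 libraries, of which Man2b2 is a lysosomal mannosidase and Optn an autophagy receptor, and Man2b2 (0.99), Stx12 (0.98) and Hgsnat (0.98) over 13. Atp6v1g1 was most like Sars (0.98), Higd1c (0.98) and Aig1 (0.98), and over 13 LTO1 (0.97), Cyba (0.97) and Ano10 (0.97).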

How the data were processed

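Total RNA of 17 kidneys was sequenced as stranded poly(A) libraries with single-end reads. Reads were trimmed with Trim Galore 0.6.6 and cutadapt 2.5 and aligned with STAR 2.7.9a (versions from the submitters' processing notes), and transcripts were quantified with RSEM by the authors. Per the methods a human build was named for the alignment and a human or mouse build for the annotation, whereas the rows list mouse transcripts. The authors deposited expected counts and TPM per transcript. TPM is scaled by the authors to the same total in every library.

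Of 119353 transcripts, 116770 (97.8%) were matched by unversioned identifier to GENCODE M21 (GRCm38), holding at least 99.04% of the counts of each library, and were summed to 35971 genes and rounded. Genes passing filterByExpr with a minimum count of 10 were tested in a joint model of all 17 libraries, with genotype group as its term (edgeR 4.0.16, R 4.3.3, TMM, quasi-likelihood), and p-values were adjusted over 17011 genes with a threshold of 0.05. The study's own tool, DESeq2 (1.42.0), and limma (3.58.1) on log2(TPM + 1) or log2(TPM + 0.1) were alternatives, with others given in the closing section. Ratios were tested by exact permutation (Python 3.11.15, scipy 1.17.1). p-values measure the spread between separately titled kidneys. Log2 fold changes are given ± standard error, and CPM and TPM ± SD.

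The members and gene lists were chosen with earlier results of these data known. All 10 members are named, as are the 3 genes of each pump list with the largest change in KI against Cre(−) and, per member, the 3 genes with the highest correlation of log2 CPM (prior count of 2), of which 1 is not reported here. Atp6v0b, Atp6v0a2, Atp6v0e, Dmxl2 against KI and single markers were named after their values were seen.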

Additional observations from a re-analysis of the deposited data

How the results depend on the processing

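The isoform ratios kept their direction under every alternative run, while their side of the threshold says little, since the tests against KI could not pass and those against Cre(−) were at their smallest p. The number of members called, 3 in Hif1α KO and 2 in Hif2α KO kidneys against KI, was 5 and 5 with DESeq2 and 0 and 0 when only the groups compared were fitted. In Hif2α KO kidneys it was 1 without the filter on low counts (Atp6v0d1), 0 with limma on either TPM scale and 0 with the replicate number as a block. Leaving out 1 library gave 1 to 4 in Hif1α KO, 0 to 2 in Hif2α KO and 5 to 6 in DKO kidneys against KI, and 8 to 9, 7 to 7, 7 to 8 and 7 to 8 in KI, Hif1α KO, Hif2α KO and DKO kidneys against Cre(−). Kidneys with the same replicate number did not deviate together (correlations from -0.22 to 0.25, median -0.034, 31 pairs), so the replicate block is no pairing. Under the block the other comparisons kept their number of calls, apart from Hif2α KO against Cre(−), where Atp6v0d2 had an adjusted p of 0.0563. On the TPM scale the calls against Cre(−) were 5 higher and 4 lower in KI (4 and 4 by counts), 4 and 4 in Hif1α KO (3 and 4), 4 and 4 in Hif2α KO (3 and 5) and 4 and 3 in DKO kidneys (3 and 5). They were 1 higher and 4 lower in DKO against KI (0 and 5 by counts). The median gene stood 0.48, 0.45, 0.53 and 0.56 higher than in Cre(−) in TPM in these 4 groups. No share of all genes called was computed for any of the alternatives or left-out libraries, so these counts have no background beside them.

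Some directions turned. Against Cre(−), Atp6v1c1 was -0.0034 in Hif1α KO and -0.0056 in Hif2α KO kidneys with DESeq2, -0.0024 and -0.0046 with its size factors, and -0.013 in Hif2α KO with the replicate block. With 1 or 0.1 added to the TPM, Atp6v1b2 against Cre(−) was 0.29 or 0.30 in Hif1α KO, 0.31 or 0.31 in Hif2α KO and 0.18 or 0.18 in DKO kidneys, Atp6v0d2 was 0.11 or 0.11, 0.030 or 0.030 and 0.13 or 0.13, and Atp6v1c1 in DKO was 0.64 or 0.65. In TPM the median gene stood 0.45, 0.53 and 0.56 higher in Hif1α KO, Hif2α KO and DKO kidneys. Against KI, Atp6v0d2 in Hif2α KO was 0.046 or 0.049, and Atp6v0a4 in DKO was 0.11 or 0.11, 0.0018 without the filter and 0.011 with only the groups compared. Leaving out 1 library, Atp6v1c1 ran from -0.033 to 0.062 in Hif1α KO and from -0.042 to 0.069 in Hif2α KO against Cre(−). Against KI, Atp6v0d2 ran from -0.063 to 0.46 in Hif1α KO, -0.23 to 0.30 in Hif2α KO and -0.15 to 0.37 in DKO, Atp6v0a4 from -0.44 to 0.12 in Hif2α KO and -0.20 to 0.31 in DKO, and Atp6v1b1 from -0.081 to 0.41 and Atp6v1c2 from -0.054 to 0.62 in Hif1α KO. The causes of these shifts were not tested. At 3 or 4 kidneys a group and whole-kidney RNA, small differences such as these were not resolved.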
